A study of Mus musculus with 14 samples.

Results

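The Hox genes of the mouse lie in 4 clusters, HoxA, HoxB, HoxC and HoxD, and the 38 Hox genes described here were chosen by name. There were 10 in HoxA, 10 in HoxB, 9 in HoxC and 9 in HoxD, of 21938 protein-coding genes on the chromosomes in the GENCODE M21 annotation of mm10 (GRCm38.p6). H3K4me1, the monomethylated form of lysine 4 of histone H3, was followed with ChIP-seq in NG3, a single clone of immortalized mouse embryo fibroblasts. In this clone exon 4 of the endogenous Ash2l had been removed by CreER, and the cells lived on FKBP-HA2-ASH2L, a tagged human ASH2L brought in by a lentivirus that the PROTAC dTAG-13 sends to degradation. All groups carried these changes, the control without dTAG-13 (labelled WT) included, and the treated groups had received dTAG-13 for 30 min or for 2, 4, 8 or 16 h. Each of the 6 conditions had 2 replicates, which gives 12 H3K4me1 libraries beside 2 inputs, but the table used here is a single list of the positions of 160144 H3K4me1 sites over all of them. The changes per time point that the study lists were not analysed here. The study reports that nearly all sites with increased H3K4me1 after dTAG-13 were at promoters. Sites gained in that way cannot be told apart here from those of untreated cells. The table holds no signal, read count or p-value per library, so that every value below is a number, a width or a position of sites, has no replicate error and no read depth, and belongs to no particular time point. No test over samples could be made, and the values of the Hox genes are set beside those of all protein-coding genes.

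Hox genes encode homeodomain transcription factors that give cells their place along the body axes and along the limbs. Within a cluster they stand in the order in which they are used along the body: genes of low paralogy group numbers lie at the 3′ end and act anteriorly, and genes of high numbers lie at the 5′ end and act posteriorly and distally. Genes with the same number in different clusters are paralogues. Fibroblasts taken from different sites of the body keep different sets of active Hox genes in culture, a record of where they came from. H3K4me1 marks enhancers and the borders of active promoters, and ASH2L is a shared subunit of the KMT2 complexes that methylate H3K4. Hox genes are the classical targets of these trithorax group enzymes.

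The sites were split between the clusters. All 10 HoxA promoters and all 9 HoxD promoters, taken as the 1000 bp on either side of the transcription start site (TSS), overlapped at least 1 site, whereas 1 of 10 promoters in HoxB and 1 of 9 in HoxC did. Over all protein-coding genes 63.9% did, and over those with a CpG island in the window 92.7%. All 19 HoxA and HoxD promoters held an island, as did 5 of 10 in HoxB and 6 of 9 in HoxC. Sites covered 69.3% of the HoxA cluster, 35.6% of HoxD, 1.78% of HoxB and 1.36% of HoxC. Of the 59 sites in the 4 clusters, 31 lay in HoxA, 19 in HoxD, 6 in HoxB and 3 in HoxC. The promoters of paralogues therefore differed: Hoxd8 and Hoxd1 had a site over the TSS and Hoxb8 and Hoxb1 had none within the promoter window.

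**Figure D1:**
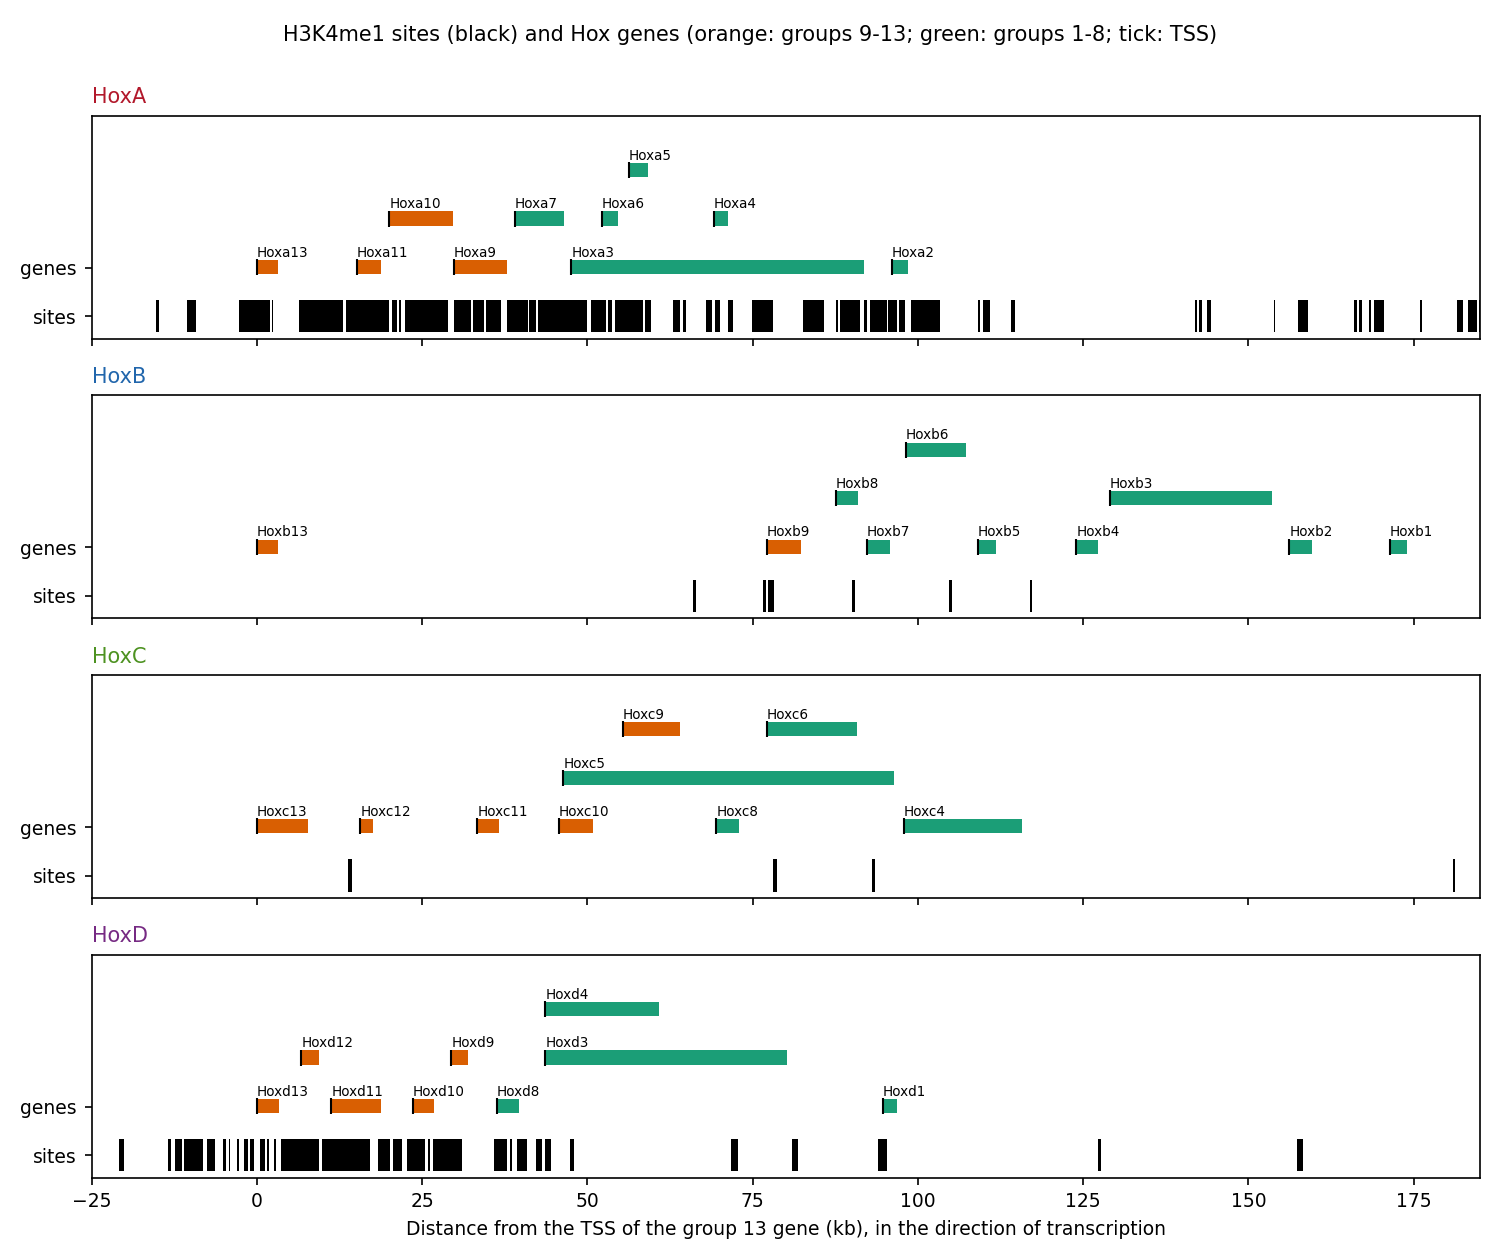
Map of the 4 Hox clusters, with the distance from the TSS of the group 13 gene in kb on the horizontal axis, the H3K4me1 sites as black blocks and the genes as bars (orange for paralogy groups 9 to 13, green for groups 1 to 8, with a tick at the TSS). The 31 sites of HoxA extend over the whole cluster and those of HoxD lie mostly between Hoxd13 and Hoxd8, while HoxB has 6 and HoxC 3 narrow sites.

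The sequences that carry this contrast are the promoters of paralogues on either side of it. RefSeq promoter sequences of GRCm38.p6 were at hand for 22 of the 38 genes, in 24 windows of 300 bases, and the bases before the start are shown for 7 of them from 5′ to 3′ on the strand of the gene, with CpG dinucleotides in capitals. Hoxa13 and Hoxd13, genes of the most distal limb and the genital tubercle, stand for the posterior ends of the covered clusters. Hoxb8 and Hoxd8, and Hoxb1 and Hoxd1, are paralogous pairs of which only the HoxD gene has a site in the promoter window. Hoxd4 is shown at its coding start, which lies outside any site.
Hoxa13, chr6:52260881-52261130, minus strand, covered over all 250 bases: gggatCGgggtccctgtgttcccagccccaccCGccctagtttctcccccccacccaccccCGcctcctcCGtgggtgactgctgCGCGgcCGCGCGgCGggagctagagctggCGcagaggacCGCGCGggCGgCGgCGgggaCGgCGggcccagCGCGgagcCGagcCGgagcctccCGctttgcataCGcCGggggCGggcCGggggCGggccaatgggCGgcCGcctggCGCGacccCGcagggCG
Hoxd13, chr2:74667975-74668224, plus strand, not covered: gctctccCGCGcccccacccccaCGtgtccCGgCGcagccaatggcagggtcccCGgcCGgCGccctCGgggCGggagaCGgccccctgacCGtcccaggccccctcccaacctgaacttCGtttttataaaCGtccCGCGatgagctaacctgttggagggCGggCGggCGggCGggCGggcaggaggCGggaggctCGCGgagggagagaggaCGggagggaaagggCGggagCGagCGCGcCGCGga
Hoxd8, chr2:74704365-74704614, plus strand, covered over all 250 bases: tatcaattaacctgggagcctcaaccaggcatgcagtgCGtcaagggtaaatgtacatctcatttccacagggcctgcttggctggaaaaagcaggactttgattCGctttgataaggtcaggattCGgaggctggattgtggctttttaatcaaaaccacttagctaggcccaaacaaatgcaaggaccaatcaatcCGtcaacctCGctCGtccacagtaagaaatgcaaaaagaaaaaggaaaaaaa
Hoxb8, chr11:96281655-96281904, plus strand, not covered: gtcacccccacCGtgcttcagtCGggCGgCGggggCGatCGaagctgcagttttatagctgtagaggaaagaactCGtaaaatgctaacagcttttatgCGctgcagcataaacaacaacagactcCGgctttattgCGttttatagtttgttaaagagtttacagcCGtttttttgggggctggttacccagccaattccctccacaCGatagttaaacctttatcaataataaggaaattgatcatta
Hoxd1, chr2:74762730-74762979, plus strand, covered over all 250 bases: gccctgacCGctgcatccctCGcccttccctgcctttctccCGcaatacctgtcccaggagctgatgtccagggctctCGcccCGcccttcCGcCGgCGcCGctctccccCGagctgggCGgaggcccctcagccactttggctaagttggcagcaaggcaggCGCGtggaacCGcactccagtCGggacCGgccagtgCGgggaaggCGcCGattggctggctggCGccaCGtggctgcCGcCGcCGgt
Hoxb1, chr11:96365508-96365751, plus strand, not covered: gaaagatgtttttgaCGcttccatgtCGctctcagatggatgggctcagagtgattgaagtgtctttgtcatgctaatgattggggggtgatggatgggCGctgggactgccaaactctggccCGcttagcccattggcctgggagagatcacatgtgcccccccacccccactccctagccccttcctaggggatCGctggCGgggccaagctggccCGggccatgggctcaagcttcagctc
Hoxd4, chr2:74721728-74721977, plus strand, not covered: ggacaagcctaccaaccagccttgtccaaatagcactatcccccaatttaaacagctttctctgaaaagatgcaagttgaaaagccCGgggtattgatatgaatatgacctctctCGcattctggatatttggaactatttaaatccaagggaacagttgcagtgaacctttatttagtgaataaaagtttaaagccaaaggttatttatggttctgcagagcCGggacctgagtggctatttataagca

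The difference in CpG content between covered and uncovered paralogues ran either way. In the full windows of 300 bases Hoxd8, which was covered, held 6 CpGs and Hoxb8, which was not, held 13. Hoxd1 held 29 and Hoxb1 10, and Hoxd13, with 37, was second to Hoxa13, with 45. The 18 Hox windows with a site held 4 to 45 CpGs (median 20) and the 6 without a site 4 to 37 (median 11.5), so that the ranges overlapped. The median over all 32851 windows of the table was 7. The TATA box letters TATAAA, searched on both strands, stood in 1 of the 18 windows with a site and in 3 of the 6 without, those of Hoxb8, Hoxd4 and Hoxd13, and in 13.6% of all windows. Hoxd4 and Hoxd13 count as without a site in these 300 bases only. Both had a site in the wider promoter window at the upstream start. The letters CCAAT stood in 15 of the 24 Hox windows and in 37.4% of all windows, on either strand. These are matches of letters and do not show binding.

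Taken as 1 group, the Hox genes had a site no more often than all protein-coding genes. Their median share covered was larger than over all of these, but for promoters not larger than over genes with a CpG island. Of the 38 promoters 21 overlapped a site, or 55.3%, against 63.9% of all protein-coding genes. The TSS itself lay inside a site in 15 of 38, or 39.5%, and in 39.5% of all protein-coding genes. A site lay somewhere in the gene body in 24 of 38, or 63.2%, against 72.8%, with gene bodies that were shorter (median 3.50 kb against 17.4 kb). The median share covered was 54.9% of the promoter window, against 43.8% over all protein-coding genes, and 12.8% of the gene body, against 6.47%. The promoter median describes few Hox genes, since 17 promoters had no site and none lay between 5.75% (Hoxc6) and 52.3% (Hoxd13). It stands at the lower edge of the covered promoters. Hox promoters are rich in CpG islands: 30 of 38 windows held an island, or 78.9%, against 55% of all protein-coding genes. Of the 30 island promoters 20 had a site, or 66.7%, against 92.7% of all 12056 protein-coding genes with an island. The median share of the promoter covered over those 12056 genes was 67.2%, above the 54.9% of the 38 Hox genes. For gene bodies it was 11.9%, against 12.8%. The 10 Hox island promoters without a site were all in HoxB (Hoxb1, Hoxb4, Hoxb5 and Hoxb7) and HoxC (Hoxc5, Hoxc8, Hoxc10, Hoxc11, Hoxc12 and Hoxc13).

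**Figure D2:**
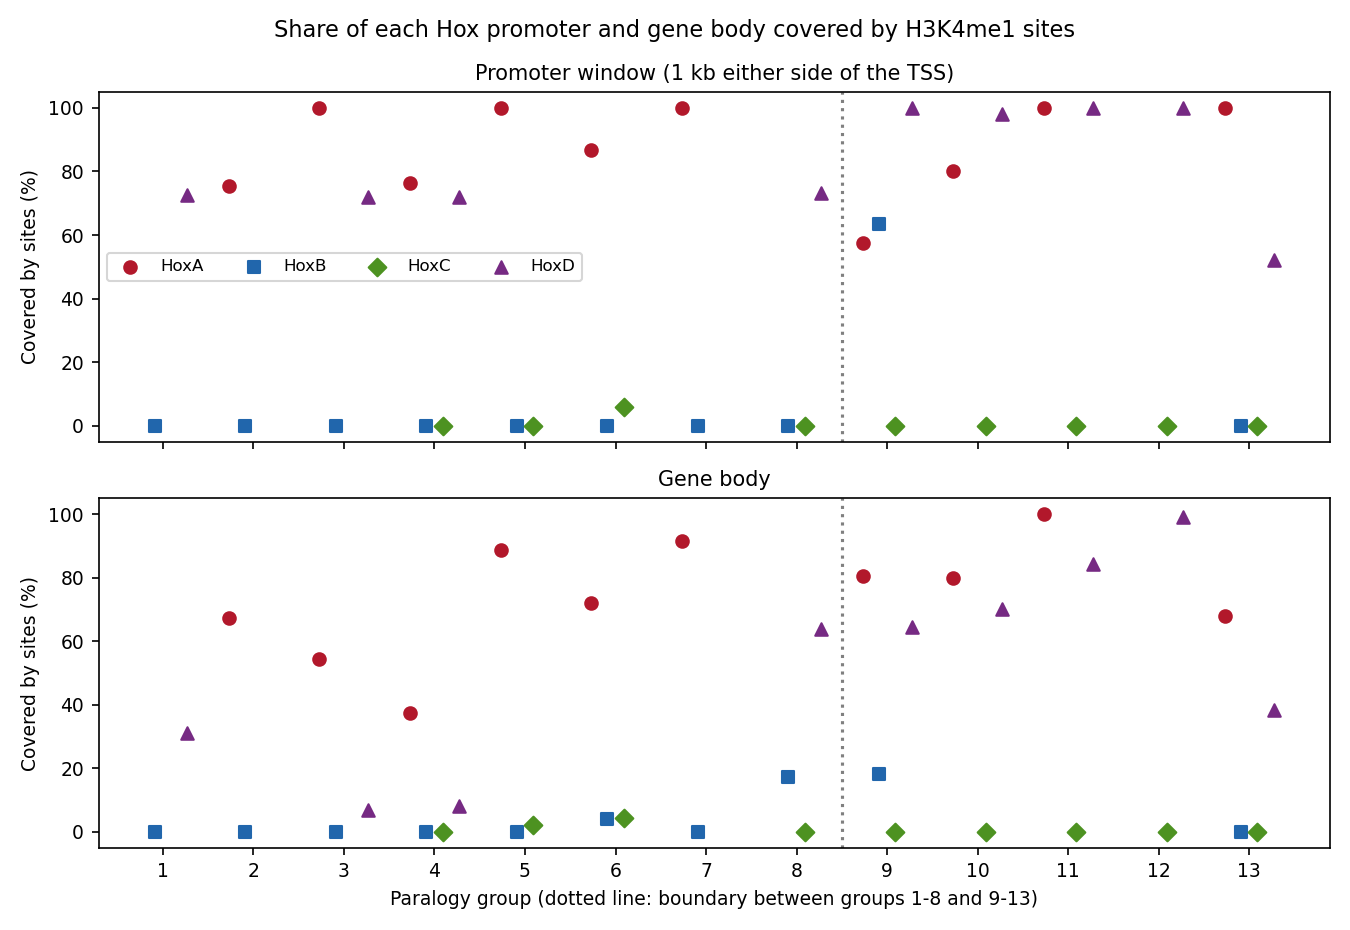
Share of the promoter window (upper panel) and of the gene body (lower panel) covered by H3K4me1 sites, in %, by paralogy group for the 38 Hox genes, with a symbol per gene and a colour per cluster. All 19 HoxA and HoxD promoters lie at 52.3% or more, and those of HoxB and HoxC lie at 0 apart from Hoxb9 (63.4%) and Hoxc6 (5.75%).

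HoxA was covered most. The 10 genes, which are transcribed from the minus strand, spanned 98.5 kb (chr6:52162417-52260880), of which 68.3 kb lay in sites. The sites were 218 to 7430 bp wide with a median of 1236 bp, against 603 bp over all sites of the table. The longest stretch without a site was 4.60 kb, within the gene body of Hoxa3. All 23 CpG islands of the cluster overlapped a site.

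At the posterior end of HoxA, the promoters of Hoxa13, a gene of the hand and foot plates and the genitourinary tract, and of Hoxa11, which patterns the forearm and the uterus, were covered over 100%. The body of Hoxa11 lay entirely within a single site of 6560 bp (chr6:52240869-52247428) whose edge lay 15 bp upstream of the TSS of Hoxa10. Hoxa10, a uterine and vertebral patterning gene, thus had its upstream TSS in a gap between sites, with 80.1% of its promoter covered. A second RefSeq start of Hoxa10, at chr6:52234939, lay inside a site. Hoxa9, known from blood stem cells and leukaemia, was similar at its upstream start: this TSS lay 34 bp from the nearest site and 57.5% of the promoter was covered, the lowest share in HoxA. The protein-coding start of Hoxa9, 3719 bp downstream, lay inside a site, with 84.1% of its window covered. The site of 6756 bp (chr6:52247791-52254546) between Hoxa13 and Hoxa11 touched no Hox gene body.

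In the middle of HoxA, the promoters of Hoxa7, a gene of the thoracic region, and of Hoxa5, which is needed for the airways, were covered over 100%, and that of Hoxa6 over 86.7%. The stretch from Hoxa7 to Hoxa5 was covered over 89.1%. The widest Hox site, 7430 bp (chr6:52210919-52218348), lay over the upstream start of Hoxa3 and reached into Hoxa7, and ranked number 443 in width among all sites of the table.

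Towards the anterior end of HoxA coverage was lower. The block from Hoxa4 to Hoxa2 was covered over 56.3%. Hoxa4 had no site over the TSS, the nearest lying 136 bp away, and 76.3% of its promoter was covered by sites on both sides. Hoxa3, which shapes the pharyngeal arches, thymus and parathyroid, had a promoter covered over 100%, and Hoxa2, the selector gene of the second pharyngeal arch, over 75.5%. The body of Hoxa4 was the least covered in HoxA, over 37.4%, and those of the other 9 genes lay between 54.5% and 100%.

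HoxD was covered in its posterior part. The 9 genes spanned 96.8 kb (chr2:74668310-74765142). From Hoxd13 to the end of Hoxd8, 39.6 kb, sites covered 69.1%, and from there to the end of Hoxd1, 57.2 kb, they covered 12.4%. A gap of 23.8 kb, the longest in the cluster, lay inside Hoxd3. Hoxd8 belongs to the anterior genes by paralogy group, and from Hoxd13 to Hoxd9 alone sites covered 77.8%. Of the 18 CpG islands of HoxD 14 overlapped a site, all 10 from Hoxd13 to the end of Hoxd8 and 4 of 8 from there to the end of Hoxd1.

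The posterior HoxD genes shape the limbs, digits and external genitalia. The promoters of Hoxd12, Hoxd11 and Hoxd9 were covered over 100% and that of Hoxd10 over 98.1%, each with the TSS inside a site. A site of 7302 bp (chr2:74678104-74685405) covered both annotated starts of Hoxd11, and a site of 5677 bp (chr2:74672001-74677677) covered 99.0% of the body of Hoxd12. Hoxd13 stood apart. Its TSS lay 455 bp from the nearest site, with sites to both sides and 52.3% of the promoter covered, the lowest share in HoxA and HoxD.

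Among the anterior HoxD genes, the promoters of Hoxd8, Hoxd3, Hoxd4 and Hoxd1 were covered over 71.9% to 73.1%, each with the TSS inside a site, although sites were few between them. Hoxd1, a gene of sensory neurons among other places, had a site of 1455 bp (chr2:74762201-74763655) that held its TSS and the start of the divergent noncoding RNA Haglr. The most upstream annotated starts of Hoxd3 and Hoxd4 lie 2 bp apart, so that their promoters are the same place. At the start of the protein-coding transcript of Hoxd4, 10049 bp downstream, no site lay within 1000 bp. The body of Hoxd3 was covered over 6.97% and that of Hoxd4 over 8.30%.

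**Figure D3:**
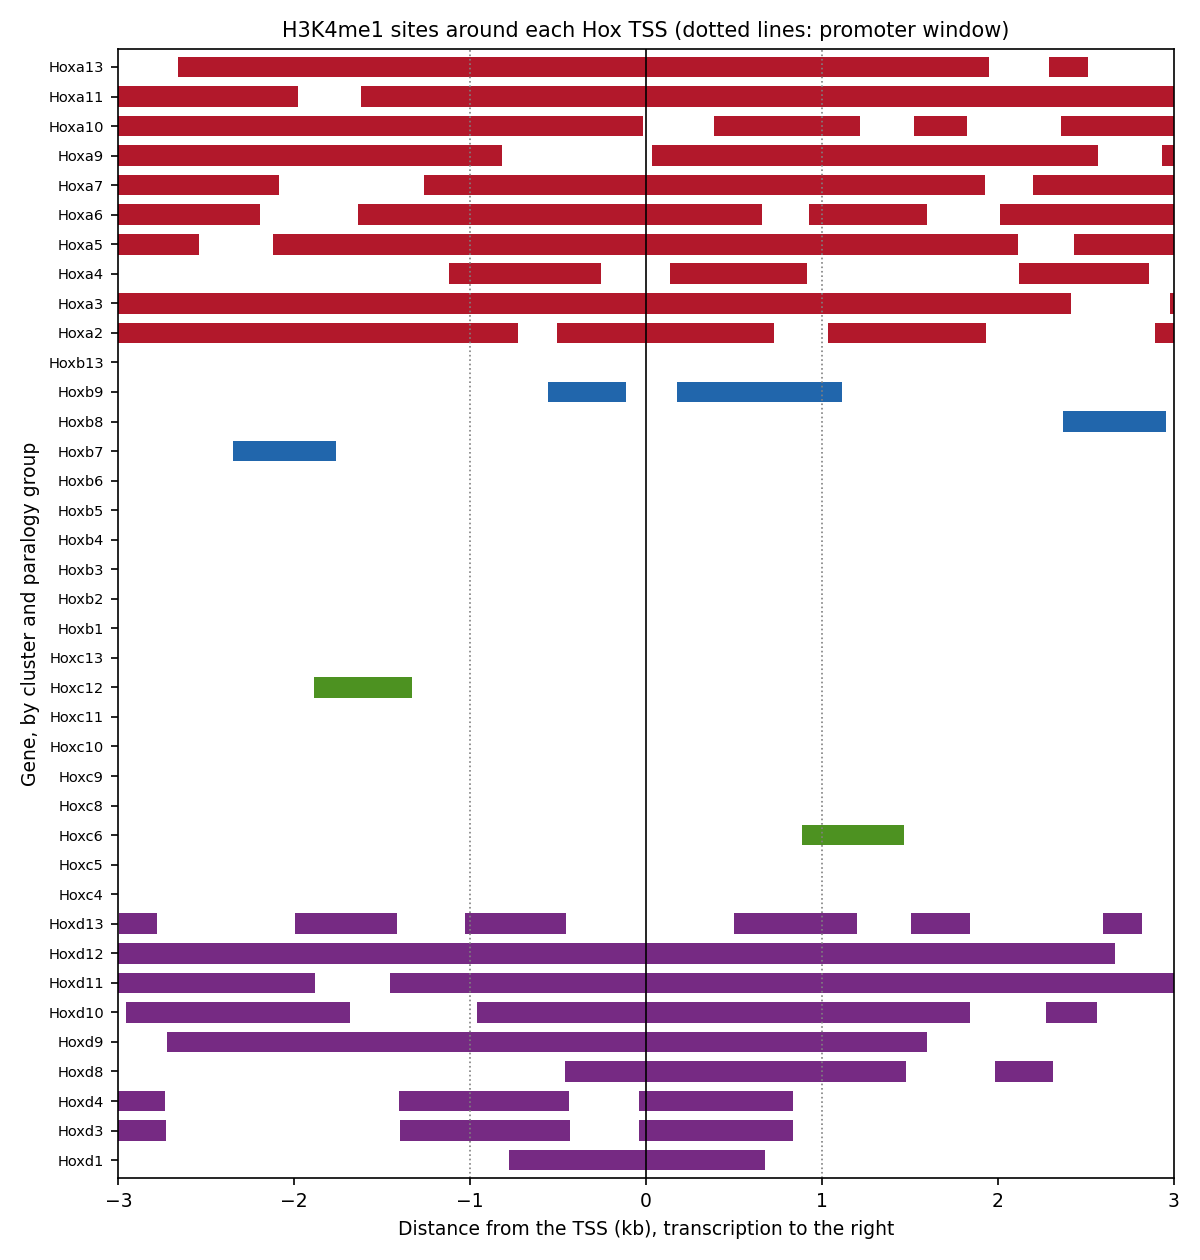
H3K4me1 sites within 3 kb of each of the 38 Hox TSSs, a row per gene in the order of cluster and paralogy group, with the distance from the TSS in kb on the horizontal axis, transcription to the right and dotted lines at the borders of the promoter window. A bar crosses the TSS in 7 of 10 HoxA genes, 8 of 9 HoxD genes and none of HoxB or HoxC.

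HoxB spanned 173.9 kb (chr11:96194316-96368256) and held 6 sites of 271 to 942 bp. None covered the most upstream TSS of a gene, and 66.0 kb from Hoxb13 onwards and 56.7 kb at the anterior end had no site. With any annotated start counted, 18 Hox genes had a TSS in a site, against 15. Not all of the genes so added lay in HoxA or HoxD. Hoxb9 was the only HoxB gene with a site at the promoter of its most upstream start. Sites of 443 and 942 bp flanked this TSS, which lay 114 bp from the nearer, and together covered 63.4% of the window. Hoxb9 also held the widest CpG island at a Hox promoter, 1759 bp. Hoxb8 had a site of 587 bp 2372 bp downstream of the TSS, in an exon. Hoxb6 had a site of 379 bp in the gene body, 6590 bp from its upstream start but within 1000 bp of another annotated start. The remaining genes of the cluster had no site in the promoter or body. For Hoxb7, Hoxb5 and Hoxb4 the nearest site lay 1.76, 3.89 and 6.73 kb from the TSS, for Hoxb3 11.8 kb, for Hoxb2, which patterns the hindbrain, 39.0 kb, and for Hoxb1, a hindbrain gene as well, 35.9 kb. Hoxb13, a gene of the tail and prostate, was the most remote Hox gene, 48.1 kb from any site.

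The narrowest HoxB site, of 271 bp between Hoxb5 and Hoxb4, lay outside exons of coding genes. Its sequence is given as an example of an isolated site in a cluster with few sites, with its 4 CpGs in capitals and a GC content of 48.7%.
HoxB site, chr11:96311263-96311533, plus strand: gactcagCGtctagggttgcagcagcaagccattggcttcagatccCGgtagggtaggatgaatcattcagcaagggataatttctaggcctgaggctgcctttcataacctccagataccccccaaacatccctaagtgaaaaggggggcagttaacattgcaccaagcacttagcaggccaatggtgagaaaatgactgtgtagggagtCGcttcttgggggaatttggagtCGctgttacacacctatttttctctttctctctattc

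HoxC spanned 115.8 kb (chr15:102921103-103036852) and held 3 sites of 434 to 584 bp, with 63.7 kb between the first and the second. Hoxc6, which is active in the thorax and the forelimb bud, had a site of 584 bp that began 886 bp downstream of its upstream TSS and covered 5.75% of the promoter window. At the start of its protein-coding transcript, 11316 bp further on, no site lay in the window, and with 500 bp on either side of the upstream TSS none did there. The same site lay in the body of Hoxc5, whose annotated transcripts begin 46372 bp apart. Hoxc5 had no site at its upstream start, which is 647 bp from the TSS of Hoxc10, but at the start of its protein-coding transcript a site of 434 bp covered 21.7% of the window. The first site of the cluster, 556 bp wide, ended 1330 bp upstream of Hoxc12. Hoxc13, a gene of hair and nails, lay 13.8 kb from the nearest site, Hoxc11 19.0 kb, Hoxc10 31.4 kb, Hoxc9 22.7 kb, Hoxc8 8.54 kb and Hoxc4 4.34 kb. No HoxC gene had its most upstream TSS in a site.

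The stretches without a site were set beside the rest of the genome. Among neighbouring island promoters of coding genes, 24 runs of at least 5 in a row without a site were found on the chromosomes. A run of 6 was Hoxc13, Hoxc12, Hoxc11, Hoxc10, Hoxc5 and Hoxc8, over 69.5 kb, although the windows of Hoxc10 and Hoxc5 overlap. A run of 5 was Hoxb7, Hoxb5, Hoxb4, Hoxb1 and the next gene, Skap1, over 178.0 kb. Of 25594 windows of 100 kb, 4 outside the Hox clusters were covered over a larger share than HoxA and 297, or 1.16%, over a larger share than HoxD. HoxB and HoxC lay near the middle of these windows, whose median was 2.39%, with 54.4% and 57.8% of windows above them. HoxB is longer than such a window. Repeats, in which reads are harder to place, made up 13.4% of HoxA, 14.4% of HoxD, 15.9% of HoxC and 24.6% of HoxB. The number of CpGs per kb was 29.9 in HoxA, 28.0 in HoxD, 21.5 in HoxC and 20.9 in HoxB, so that on both measures HoxA and HoxD stood on the same side as in coverage, and the part of these measures in it was not tested.

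**Figure D4:**
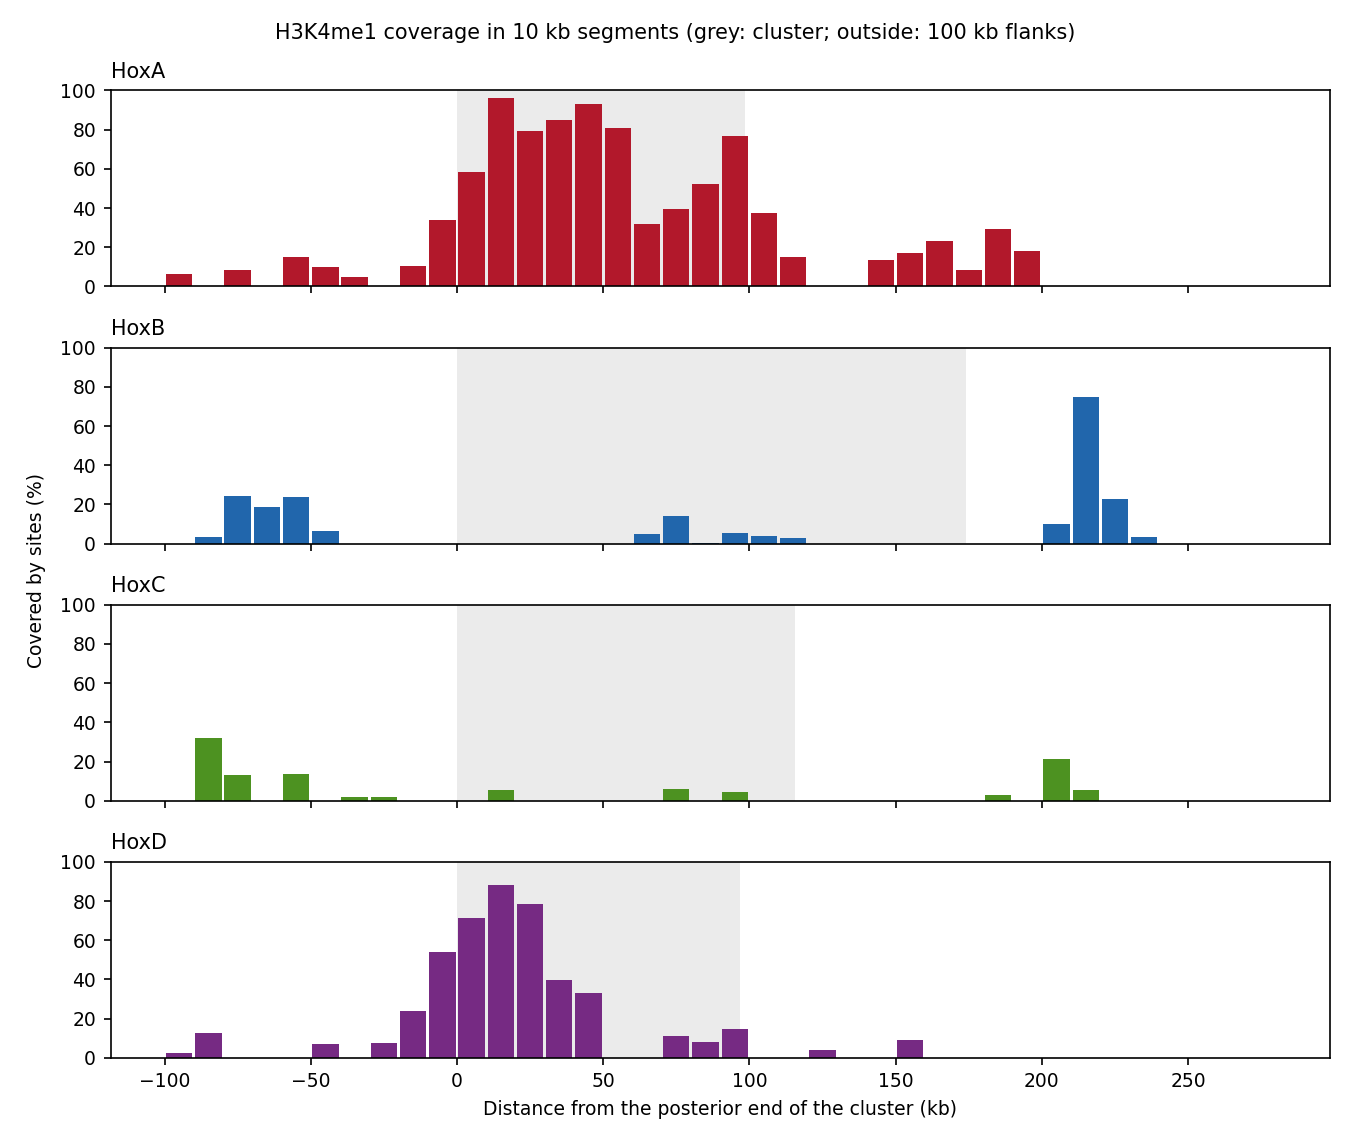
Share of bases covered by H3K4me1 sites, in %, in segments of 10 kb along each cluster (grey) and its flanks of 100 kb, with the distance from the posterior end of the cluster in kb on the horizontal axis. HoxA stays between 32.03% and 96.4% throughout, HoxD falls from 88.2% to 0 within the cluster, and in HoxB the tallest bar, 74.95%, is in the flank.

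The flanks of 100 kb on both sides were covered over 13.1% for HoxA and 6% for HoxD, below their clusters, and over 9.39% for HoxB and 4.63% for HoxC, above theirs. For HoxC this turned with flanks of 50 kb, which were covered over 0.388%, below the 1.36% of the cluster. At the posterior end of HoxD coverage ran on beyond Hoxd13, with 53.8% of the first 10 kb and 24.0% of the next, a stretch that holds Evx2, a homeobox gene regulated together with the posterior HoxD genes. At the posterior end of HoxA the first 10 kb were covered over 34.1%. Evx1, the homeobox neighbour of Hoxa13, had 46.2% of its promoter covered and Evx2 81.2%. The coding neighbours of HoxB were Ttll6, covered over 48.9% of the promoter, and Skap1, which had no site there. Next to HoxC, Calcoco1 was covered over 100% and Smug1 over 5.90%. At the anterior ends of HoxA and HoxD the coding neighbours were Skap2 and Mtx2, covered over 30.8% and 44.4% of the promoter. Calcoco1, Smug1 and Skap2 lie outside the flanks of 100 kb.

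Anterior and posterior genes were compared with paralogy groups 1 to 8 as anterior and 9 to 13 as posterior. Of 22 anterior promoters 11 had a site and of 16 posterior promoters 10. The median share of the promoter covered was 2.87% for anterior and 60.5% for posterior genes, a difference of -57.6 percentage points. The classes draw unequally on the clusters, and the medians within clusters differed from the pooled ones. In HoxA they were 93.3% for anterior and 90.0% for posterior genes, in HoxC both were 0, in HoxB they were 0 for 8 anterior genes and 31.7% for the 2 posterior ones, and in HoxD they were 72.4% and 100%. With groups 1 to 3 alone as anterior the median was 72.0% and the difference turned to 11.5 percentage points. For gene bodies in HoxD the median share covered was 19.8% for the 4 anterior and 70.3% for the 5 posterior genes, and the ranges overlapped, since the body of Hoxd8 was covered over 64.0% and that of Hoxd13 over 38.3%. In HoxA the body medians were 69.7% and 80.3%.

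Read along the paralogy groups, a HoxA or HoxD promoter had a site in each of the 13 groups. In groups 1 to 5, 7, 8 and 10 to 13 no HoxB or HoxC paralogue did at its upstream start. The exceptions were Hoxb9 in group 9, where Hoxc9 had none, and, at its upstream start and with the window of 1000 bp, Hoxc6 in group 6, where Hoxb6 had none. At other annotated starts Hoxb6 and Hoxc5 did have a site.

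**Figure D5:**
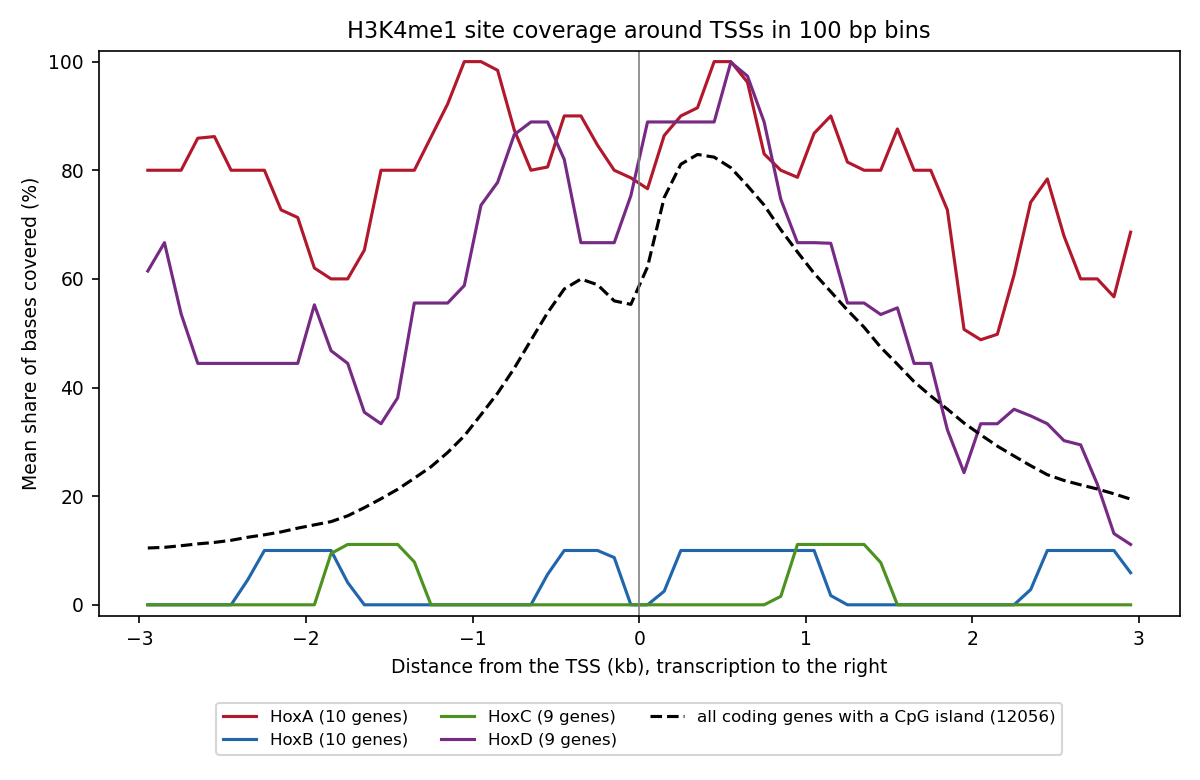
Mean share of bases covered by H3K4me1 sites, in %, in bins of 100 bp around the TSS, for the genes of each Hox cluster and for all 12056 protein-coding genes with a CpG island at the promoter (dashed). Island genes fall to 10.5% at 3 kb upstream, where HoxA is at 80.0% and HoxD at 61.4%, and HoxB and HoxC do not exceed 10% and 11.1%.

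The HoxA and HoxD genes stood furthest above other island genes upstream of the TSS. Over all 12056 protein-coding genes with an island, coverage was highest 300 to 400 bp downstream of the TSS, 82.9%, where HoxA was at 91.5% and HoxD at 88.9%. At 3 kb upstream it was 10.5% for the island genes, 80.0% for HoxA and 61.4% for HoxD. At 3 kb downstream HoxA was at 68.6% and HoxD, at 11.1%, lay below the island genes, at 19.5%. Neighbouring Hox genes contribute to these values, since their promoters are a few kb apart. The island genes had a dip at the TSS, to 55.3% in the last 100 bp before it. In HoxA that bin was at 78.6% and in HoxD at 75.3%. The median width of the 59 sites in the clusters was 899 bp, and 6 of them, 4 in HoxA and 2 in HoxD, were at least 5000 bp wide, as were 1500 sites of the whole table. Of the 59, 26 touched a Hox promoter window and 33 did not.

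The clusters also hold microRNAs, which act on messages of Hox genes among others, and noncoding RNAs. Their mature sequences, from RefSeq, are shown with the seed (bases 2 to 8) in capitals because copies of the same family sit in clusters with many and with few sites.
miR-196a-5p, from Mir196a-1 in HoxB and Mir196a-2 in HoxC: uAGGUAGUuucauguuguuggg
miR-196b-5p, from Mir196b in HoxA: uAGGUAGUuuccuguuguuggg
miR-10a-5p, from Mir10a in HoxB: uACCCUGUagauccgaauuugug
miR-10b-5p, from Mir10b in HoxD: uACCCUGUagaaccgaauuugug
The members of each pair share the seed and differ by 1 base, counted from the 5′ end: A12C from miR-196a-5p to miR-196b-5p, and U12A from miR-10a-5p to miR-10b-5p. The hairpin of Mir196b, in the upstream part of the Hoxa9 gene body, lay within a site of 2534 bp (chr6:52228522-52231055). The hairpin starts of the other copies lay outside, Mir196a-1 by 4386 bp, Mir196a-2 by 25793 bp, Mir10a by 5632 bp and Mir10b by 9812 bp, although Mir10b is in HoxD. Mir615, in HoxC, lay 314 bp from the third HoxC site.

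Of the other annotated genes that overlap the spans, all 15 in HoxA had a site at the promoter, 5 of 10 in HoxD, 1 of 7 in HoxC and 0 of 9 in HoxB. Over all protein-coding genes the share was 63.9%, but most of these genes are noncoding, and no share over such genes was counted. Several of the HoxA entries start in sites that also overlap Hox promoter windows, such as that of 6560 bp over Hoxa11. Their counts therefore repeat those of the Hox genes in part. The promoter of 9530018H14Rik was covered over only 4.55%. Hoxa11os, the antisense RNA of Hoxa11, was covered over 100% of its promoter and Haglr over 72.7%. Hotair, a noncoding RNA of HoxC known from fibroblasts of posterior and distal skin, lay 12303 bp from the nearest site. Antisense and sense genes of the clusters share their sites, since the position of a site has no strand.

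HOX proteins bind DNA together with TALE homeodomain partners, and all 8 cofactor genes counted here had a site at the promoter, against 63.9% of all protein-coding genes. A CpG island was present in 7 of the 8, and of all island promoters 92.7% had a site. Meis1, Meis2 and Meis3 were covered over 84.7%, 85.6% and 100% of the promoter window. For Pbx2, Pbx3 and Pbx4 the shares were 59.8%, 81.6% and 85.9%, and for Pknox1 and Pknox2 they were 69.0% and 100%. The cofactor genes are spread over the genome and were long, with a median body of 91.1 kb against 3.50 kb for the Hox genes. The TSS lay in a site in 7 of the 8, all but Pknox1.

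Other families were counted for comparison. Of 44 Fox genes 32 had a promoter site (72.7%) and of 47 Sox, Tbx, Pax and Gata genes 30 (63.8%), both with members spread over many loci. Of the island promoters among them, 30 of 38 (78.9%) and 26 of 35 (74.3%) had a site. Both shares, like the 66.7% of the Hox genes, were below the 92.7% of all island promoters. The clustered protocadherins, another family in long gene clusters, had a site at 9 of 57 promoters (15.8%), and at 2 of 20 island promoters. The corresponding counts were 2 of 19 promoters for HoxB and HoxC together and 19 of 19 for HoxA and HoxD. Markers of cell types were counted as well. A promoter site was found in 9 of 10 fibroblast genes, all but Col3a1, and in 63.9% of all protein-coding genes. Of 14 genes of other cell types 4 had one (Cdh1, Epcam, Pecam1 and Neurod1). An island was present at 5 of the 10 fibroblast promoters, all 5 with a site, and at 4 of the 14 others, 3 of them with a site. A site at a promoter is not a measure of expression.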

How the data were processed

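H3K4me1 ChIP-seq libraries of NG3 cells and their inputs were grouped by the labels. The authors used Trim Galore for trimming, BWA for alignment to mm10, SAMtools for filtering, Picard for merging of replicates and Macs for broad peaks. Thresholds and versions are not given in the sources used here. The deposited table used here holds positions in bases (chromosome, start counted from 0, and end) of 1 set of sites over all samples, with no other value. All coordinates printed count from 1.

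Overlaps with GENCODE M21 on GRCm38.p6 (the study names M25) were counted with Python 3.11.15, numpy 2.4.6 and numba 0.67.0, and plots were made with matplotlib 3.10.9. The TSS of a gene was its most upstream annotated start. A promoter was 1000 bp on either side, an overlap at least 1 bp, and a cluster the span between the outer ends of the genes described. CpG islands (17036) were called with at least 200 bp, 50% GC and an observed to expected CpG ratio of 0.6. The overlap functions equalled a direct count in 100% of 1000 simulated windows, and 43 of 50 simulated islands were found with both ends in place.

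The named genes were the 38 Hox genes, all other genes in or next to the clusters, HOX cofactors, ParaHox and Cdx genes, other genes of position in mesenchyme, and cell type markers. Members and lists were chosen with earlier results of these data known. Of 36 alternatives, 34 were planned and 2 added after seeing the data. A Hox gene of the clusters and a gene of the cofactor list are not reported here.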

Additional observations from a re-analysis of the deposited data

How the results depend on the processing

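Of 36 alternatives over 14 values, 29 left a count or a percentage within 1.5 times its value, or a difference in medians within 10 percentage points. The number of Hox promoters with a site was 21 and ranged from 20 to 24, and HoxA kept 10 of 10 under each choice of TSS and window width tried while HoxD lost only Hoxd4, at the start of its protein-coding transcript. With RefSeq starts, added after seeing the data, 17 of 22 promoters had a site, against 18. Keeping only sites of at least 500 bp lowered the coverage of HoxB to 0.879%. With flanks of 50 kb those of HoxC were covered over 0.388%, below the cluster itself, and those of HoxD over 9.60%. The difference between anterior and posterior promoter medians, -57.6 percentage points, was -13.8 as the median within clusters, -71.7 with the starts of protein-coding transcripts and -24.1 with HoxA and HoxD alone (added after seeing the data), and it reversed to 11.5 for groups 1 to 3 against 9 to 13. Groups 1 to 3 hold no HoxC gene. No paired analysis was possible because a single set of sites, with no value of any library, was used here. Likewise no replicate could be left out, a site present in few libraries cannot be told apart from one present in all, and a stretch without a site shows only that no site is listed there. The sequencing was planned for a minimum depth, per the study's methods, but the depth reached by each library is not part of the table.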

Other observations

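The ParaHox and Cdx genes are the closest relatives of the Hox genes, and Cdx factors act on Hox genes in the trunk. Of 6 genes only Gsx2 had a site at the promoter, over 47.0% of the window, and of their 5 island promoters 1 had a site, against 92.7% of all island promoters. Gsx1, Pdx1, Cdx1, Cdx2 and Cdx4 had none, and the nearest site lay between 3.23 kb (Cdx1) and 52.7 kb (Gsx1) from the TSS.

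Of 20 other genes that mark position in mesenchyme 16 had a site at the promoter, or 80%, against 63.9% of all protein-coding genes. Of their 17 island promoters 14 had a site, or 82.4%, against 92.7% of all island promoters, so that the count did not stand above that of genes with islands. Tbx15, a gene of the dorsal skin and limb girdles, and Shox2 and Emx2, genes of the limb skeleton, were covered over 100%. Tbx4, the hindlimb gene, was covered over 49.9%, whereas Pitx1, which lies above it in the hindlimb, had no promoter site and Tbx5, the forelimb gene, had its nearest site 1.19 kb from the TSS. Barx1 and Lmx1b, the gene of dorsal limb identity, were the other genes without a promoter site.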
